A study of Homo sapiens with 4 samples.

Results

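A group of 10 long noncoding RNAs known from liver cancer was followed in 2 established human liver cancer lines, Huh7 and HepG2. The study names both lines as hepatocellular carcinoma. The RNAs were NEAT1, MALAT1, HULC, GAS5, SNHG1, ZFAS1, MIR22HG, TUG1, LINC00261 and KCNQ1OT1. These 10 genes were listed by name, out of 46427 genes in the tables, of which 13348 were long noncoding RNA genes with TUG1 counted among them, although RefSeq gives TUG1 as protein-coding. The list was selected on earlier views of these same libraries, in which the TPM of NEAT1 had been seen to part from its coverage. The values of the 10 genes are therefore a description. Each line was transfected with siRNA at 20 nM, either a negative control (NC-siRNA) or one directed at the E3 ubiquitin ligase COP1 (COP1-siRNA), and polyadenylated RNA was sequenced 48 h later. No other allele or agent separated the groups, and all 4 had gone through the same lipofection. There was 1 library for each line and siRNA, 4 in all, so no difference had a replicate check, no p-value is given, and 2-fold was the threshold. The gene name column of the tables held no symbol, and all 10 genes were found in each library by their NCBI Gene ID through RefSeq.

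Long noncoding RNAs are transcripts without a protein product that act in the nucleus as scaffolds, in the cytoplasm as partners of proteins and microRNAs, or through the act of their transcription. NEAT1 is the scaffold of the paraspeckle, a nuclear body, and MALAT1 is concentrated in nuclear speckles beside splicing factors. GAS5, SNHG1 and ZFAS1 carry small nucleolar RNAs (snoRNAs) in their introns, and their spliced RNAs are substrates of nonsense-mediated decay. HULC is known for its high level in hepatocellular carcinoma, LINC00261 lies beside the liver transcription factor gene FOXA2, and MIR22HG is the host of the microRNA miR-22. TUG1 is a widely expressed RNA, and KCNQ1OT1 is the imprinted antisense RNA of the potassium channel gene KCNQ1.

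The gene that the result on isoforms turns on, NEAT1, has 2 RefSeq transcripts, a short and a long one, that differ in their 3′ ends. The last 30 bases of a short GENCODE transcript and of the long transcript (GENCODE 29, GRCh38, plus strand) are shown because the 2 ends are made differently, with AATAAA, the polyadenylation signal, in capitals.
NEAT1 short (ENST00000646243.1), chr11:65426484-65426513: tcttcccctttacagcacaAATAAAgtttg
NEAT1 long (ENST00000501122.2), chr11:65445511-65445540: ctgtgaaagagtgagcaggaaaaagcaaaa
In the short end shown the signal is followed by 5 bases. The short transcript that GENCODE links to the RefSeq record, ENST00000601801.3, is annotated to end earlier, at 65426405, and holds neither AATAAA nor ATTAAA in its last 60 bases, so the contrast depends on the short transcript chosen. Neither sequence was found in the last 60 bases of the long transcript, which is known to be cut by another route and to end without a poly(A) tail. Polyadenylated RNA was the input of every library, and how well it samples the long transcript was not tested.

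The snoRNA hosts have several annotated starts, and the first 30 bases of 1 chosen GENCODE transcript of each are shown, with the opening run of C and T in capitals, because RNAs of the translation machinery and many snoRNA hosts start with such a run (GENCODE 29, GRCh38).
GAS5 (ENST00000449289.5), chr1:173867960-173867989, minus strand: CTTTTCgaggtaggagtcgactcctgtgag
SNHG1 (ENST00000538654.5), chr11:62855856-62855885, minus strand: CTCatttttctactgctcgtggtaagtggc
ZFAS1 (ENST00000326677.9), chr20:49278642-49278671, plus strand: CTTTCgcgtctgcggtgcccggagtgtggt
In these transcripts the run was 6 bases in GAS5, 3 in SNHG1 and 5 in ZFAS1. The share of other genes is known here for RefSeq gene starts only, where 4.07% of 35116 opened with C and a run of at least 5 such bases. At its RefSeq start, upstream of the transcript shown, GAS5 had no such run (0 bases), whereas SNHG1 had 3 and ZFAS1 had 5.

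Promoter sequences from RefSeq were held for 7 of the 10 genes, and not for NEAT1, HULC and KCNQ1OT1. The forkhead motif TGTTTAC, searched on both strands (GTAAACA on the other), was in 3.42% of the 35116 promoters of 300 bases. Among the 7, it was found in LINC00261, 230 bases before the annotated start. It is shown in capitals because FOXA2, the neighbour of LINC00261, is a forkhead factor.
LINC00261 promoter, chr20:22578861-22578890, minus strand (RefSeq, GRCh38): aaacaaagtctGTAAACAaccgaaaaaaac
The mature microRNA inside MIR22HG is shown with its seed, bases 2 to 8, in capitals, as the product for which that host is known.
miR-22-3p, chr17:1713914-1713935, minus strand (RefSeq, GRCh38): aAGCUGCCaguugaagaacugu

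Read counts were not in the tables, so the absolute depth of a library is unknown. Each table gives the mean coverage of a gene's bases, its FPKM (fragments per length and depth) and its TPM (transcripts per length, brought to the same total in every library). Coverage was divided by the library's most frequent ratio of coverage to FPKM, which was 6.59 in Huh7 with NC-siRNA, 7.47 in Huh7 with COP1-siRNA, 5.75 in HepG2 with NC-siRNA and 7.31 in HepG2 with COP1-siRNA. The quotient is called scaled coverage and is in units of FPKM. The target of the siRNA, COP1, went from 19.7 to 6.18 TPM in Huh7, leaving 31.4%, and from 26.9 to 16.1 TPM in HepG2, leaving 59.9%. All 16 listed hepatocyte genes reached 1 TPM in every library, and their summed TPM was 30322 and 27178 in Huh7 against 4446 and 5255 in HepG2 (NC-siRNA first). Of the defining leukocyte genes, PTPRC and CD3E were at 0 in every library, whereas LYZ lay between 119 and 192 TPM. Of 5 fibroblast and 4 endothelial genes, 1 fibroblast gene and at most 1 endothelial gene reached 1 TPM in a library. The fibroblast gene was LUM in Huh7, at 121 TPM in both libraries, and COL1A1 in HepG2.

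With NC-siRNA, HULC was the highest of the 10 in Huh7 and GAS5 the highest in HepG2. HULC ranked 4 and SNHG1 ranked 5 among the long noncoding RNA genes of Huh7, and GAS5 ranked 3 and ZFAS1 ranked 4 among those of HepG2. Together the 10 held 9.19% of the summed TPM of long noncoding RNA genes in Huh7 with NC-siRNA, and 8.78% with COP1-siRNA. In HepG2 they held 8.62% and 7.29%. In such bulk RNA, fewer cells with a transcript and less of it per cell cannot be told apart.

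**Figure D1:**
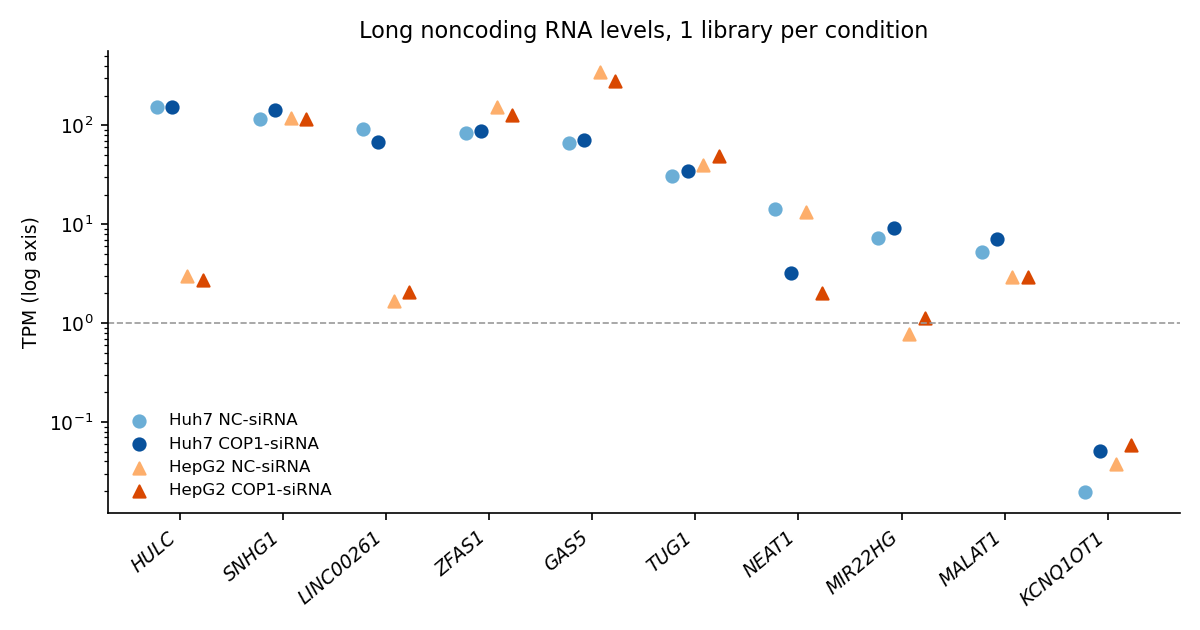
TPM (log axis) of the 10 long noncoding RNAs in each of the 4 libraries, 1 point per library, circles for Huh7 and triangles for HepG2, ordered by the level in Huh7 with NC-siRNA; the dashed line marks 1 TPM. HULC and LINC00261 lie between 68.6 and 153 TPM in Huh7 and between 1.67 and 2.98 TPM in HepG2, and KCNQ1OT1 stays under 0.06 TPM in all 4.

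COP1-siRNA was compared with NC-siRNA within each line, to ask which of the RNAs differed when COP1 was lowered. NEAT1 was the one gene of the 10 past 2-fold by TPM, lower with COP1-siRNA in both lines, and none of the 10 was past 2-fold by scaled coverage. Of the 10, 9 reached 1 TPM in a library of each line and were compared. KCNQ1OT1 did not. The background was 1.08% of 13000 genes past 2-fold by TPM in Huh7 and 0.934% of 14456 genes in HepG2. By scaled coverage it was 0.938% in Huh7 and 0.885% in HepG2. These shares stand beside the counts only, since the genes were chosen with this comparison known. Changes are log2 ratios after adding 1 to each TPM, or 0.4 to each scaled coverage, which understates the change of low genes.

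NEAT1 (gene 283131, chromosome 11, 65422798 to 65445540, plus strand) stood at 14.4 TPM in the Huh7 control and at 3.25 TPM in Huh7 with COP1-siRNA. In HepG2 the levels were 13.3 TPM and 2.01 TPM. Both COP1-siRNA libraries lay below both NC-siRNA libraries. The log2 TPM change was −1.85 in Huh7 and −2.25 in HepG2, so that 22.6% and 15.1% of the TPM were left.

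The scaled coverage of NEAT1 gave another picture. It was 0.995 with NC-siRNA and 1.38 with COP1-siRNA in Huh7, and 1.05 and 0.860 in HepG2. The log2 change in scaled coverage was 0.35 in Huh7 and −0.20 in HepG2, under 2-fold and with opposite signs. The bases aligned over the gene, coverage times its 22743 bases, numbered 149220 and 233728 in Huh7 and 136798 and 142990 in HepG2, without correction for depth.

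The ratio of scaled coverage to FPKM was the value that moved. It was 0.17 and 0.18 with NC-siRNA in Huh7 and HepG2, and 1.00 with COP1-siRNA in both. A ratio of 1 is what a gene with 1 transcript gives, as HULC, LINC00261 and KCNQ1OT1 did in all 4 libraries, and a lower ratio is given by reads assigned to transcripts shorter than the union of the gene's exons. Multiplied by the 22743 bases of NEAT1, the ratio corresponds to a mean transcript length of 3879 bases in Huh7 and 4115 bases in HepG2 with NC-siRNA, and of 22743 bases, the whole long transcript, with COP1-siRNA. The tables give no value per transcript, so whether the cells held another mixture of short and long NEAT1 or the reads were divided otherwise was not tested.

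This shift was set against that of other genes as a description only. NEAT1 had been listed because its TPM and coverage were already seen to part in these libraries, so its place among other genes is no test. It reached 5 TPM with NC-siRNA (14.4 TPM in Huh7 and 13.3 TPM in HepG2) but not with COP1-siRNA (3.25 and 2.01 TPM). Among 8991 genes with at least 5 TPM in a library of each line, 0.0111%, which is NEAT1 alone, had a ratio shifted at least 2-fold in the same direction in both. The log2 shift of NEAT1 was 2.55 in Huh7 and 2.47 in HepG2. The median absolute shift of the 8991 genes was 0.0045 and 0.0046. Within a line, NEAT1 included, 3 genes in Huh7 and 2 in HepG2 were shifted at least 2-fold in either direction. The next genes by the smaller of their 2 shifts were KIN, with −0.54 in Huh7 and −0.72 in HepG2, CMC2 with −0.47 and −0.99, SLC30A9 with 0.44 and 0.55, TTC8 with −0.39 and −0.63, and MTARC1 with −0.51 and −0.37. All 5 stayed under 2-fold in both lines, and 4 of them, all but SLC30A9, shifted in the direction opposite to NEAT1. Counted by threshold, the same 2 measures restate this shift and add no separate result. NEAT1 was the only gene past 2-fold by TPM and under 2-fold by scaled coverage in both lines. Within a line, NEAT1 included, 31 of the 141 genes past 2-fold by TPM in Huh7 and 17 of 135 in HepG2 were so.

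**Figure D2:**
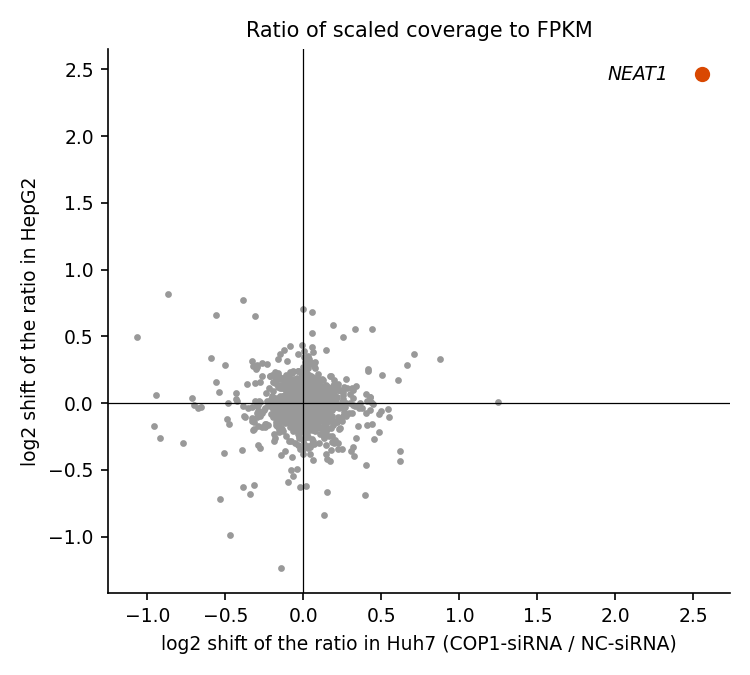
Log2 shift, COP1-siRNA over NC-siRNA, of the ratio of scaled coverage to FPKM in Huh7 (x axis) and HepG2 (y axis) for 8991 genes, 1 point per gene, with NEAT1 in orange. NEAT1 sits at 2.55 and 2.47, and most other genes gather around 0. Counting NEAT1, 3 genes are shifted at least 2-fold in Huh7 and 2 in HepG2.

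MIR22HG also had a moving ratio, at a low level. Its ratio was 0.52 with NC-siRNA and 0.95 with COP1-siRNA in HepG2, and 0.77 and 0.84 in Huh7. MIR22HG (gene 84981, chromosome 17, 1711504 to 1716272, minus strand) was at 7.34 and 9.14 TPM in Huh7 and at 0.780 and 1.12 TPM in HepG2. Both lines were higher with COP1-siRNA, with log2 TPM changes of 0.28 and 0.25 and log2 scaled coverage changes of 0.43 and 0.57. In HepG2 the gene reached 1 TPM with COP1-siRNA only, so it was compared there through the library in which it was higher. Its unscaled coverage in HepG2 was 1.02 with NC-siRNA and 3.33 with COP1-siRNA, so the HepG2 change rests on little signal. In HepG2 the scaled coverage went from 0.177 to 0.455, a plain ratio of 2.57, which passed 2-fold (1.00 on the log2 scale) with a pseudocount of 0.1 in place of 0.4. The short miR-22 precursor itself, MIR22, was at 0.02 TPM or less in every library. How well these poly(A)-selected libraries sample so short an RNA was not tested, so the value does not give the level of miR-22.

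MALAT1 (gene 378938, chromosome 11, 65497738 to 65506516, plus strand) lies 52197 bases beyond NEAT1. It was at 5.20 and 7.09 TPM in Huh7 and at 2.93 and 2.96 TPM in HepG2. The log2 TPM change was 0.38 in Huh7 and 0.01 in HepG2, and by scaled coverage 0.43 and −0.00, with the sign of the HepG2 value depending on the scaling. MALAT1 is usually among the most abundant nuclear RNAs, but here it ranked 166 and 366 among long noncoding RNA genes with NC-siRNA in Huh7 and HepG2. Its mature 3′ end has no poly(A) tail, and its sampling in these poly(A)-selected libraries was not tested. The table gives its antisense RNA TALAM1 at 0.03 TPM or less, and how reads of overlapping genes were divided is not given in the sources used here.

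HULC (gene 728655, chromosome 6, 8652209 to 8653846, plus strand) was at 153 TPM in both Huh7 libraries. In HepG2 it was at 2.98 and 2.75 TPM. The log2 TPM changes of 0.00 and −0.08 were the smallest of the 9 compared in Huh7 and the third smallest in HepG2.

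LINC00261 (gene 140828, chromosome 20, 22560553 to 22578642, minus strand) was lower with COP1-siRNA in Huh7, at 91.8 and 68.6 TPM, and slightly higher in HepG2, at 1.67 and 2.05 TPM. The log2 TPM changes were −0.41 and 0.19, and the scaled coverage changes −0.36 and 0.18. The 16 hepatocyte genes lay on the same sides by TPM, with 13 below 0 in Huh7 (median −0.12) and 16 above 0 in HepG2 (median 0.36, 2 past 2-fold), and their part in the values of LINC00261 was not tested. It was the one gene of the 9 besides NEAT1 with a negative TPM change in Huh7, apart from HULC, whose 0.00 turned to −0.01 with median-of-ratios scaling.

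TUG1 (gene 55000, chromosome 22, 30969211 to 30979395, plus strand) was at 30.9 and 34.9 TPM in Huh7 and at 39.8 and 49.1 TPM in HepG2. It was higher with COP1-siRNA in both lines, by 0.17 and 0.30 on the log2 TPM scale and by 0.23 and 0.29 by scaled coverage. KCNQ1OT1 (gene 10984, chromosome 11, 2608328 to 2699998, minus strand) was at 0.019 and 0.051 TPM in Huh7 (control first) and at 0.038 and 0.059 TPM in HepG2. The bases aligned over its 91671 bases numbered 4780 and 14828 in Huh7 and 8684 and 16834 in HepG2, which is too little to compare. KCNQ1, on the other strand of the same region, was at 0.24 TPM or less.

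**Figure D3:**
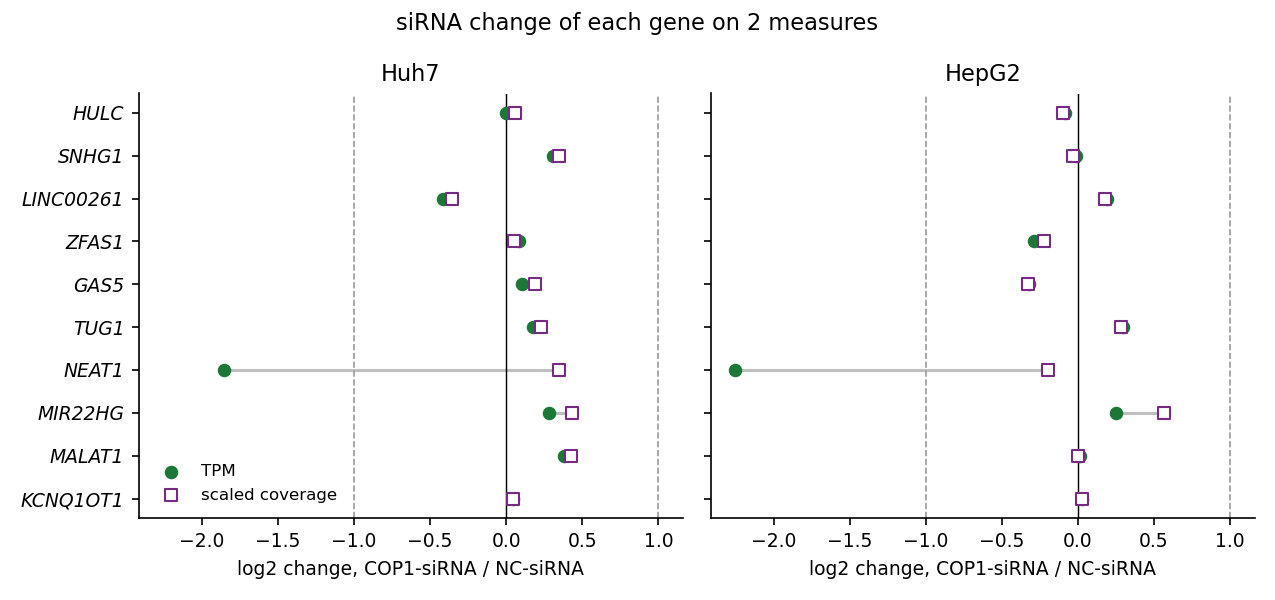
Log2 change, COP1-siRNA over NC-siRNA, of each of the 10 genes in Huh7 (left) and HepG2 (right) by TPM (green circles) and by scaled coverage (open purple squares), with a grey line joining the measures; dashed lines mark 2-fold. The measures lie close together except for NEAT1, at −1.85 and 0.35 in Huh7 and −2.25 and −0.20 in HepG2, and MIR22HG in HepG2, at 0.25 and 0.57.

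The snoRNA hosts were a little higher with COP1-siRNA in Huh7 and a little lower in HepG2, all under 2-fold. GAS5 (gene 60674, chromosome 1, 173863899 to 173868882, minus strand), a growth-arrest RNA, was at 66.9 and 71.8 TPM in Huh7 and at 349 and 279 TPM in HepG2. ZFAS1 (gene 441951, chromosome 20, 49278178 to 49289260, plus strand) was at 83.2 and 88.2 TPM in Huh7 and at 156 and 127 TPM in HepG2. SNHG1 (gene 23642, chromosome 11, 62851978 to 62855885, minus strand) was at 115 and 143 TPM in Huh7 and at 118 and 117 TPM in HepG2.
The log2 TPM changes in Huh7 were 0.10 for GAS5, 0.08 for ZFAS1 and 0.30 for SNHG1. In HepG2 they were −0.32, −0.29 and −0.01. The Huh7 sign of ZFAS1 by scaled coverage turned from 0.05 to −0.02 with median-of-ratios scaling, and the HepG2 sign of SNHG1 turned from −0.01 to 0.01 with upper-quartile scaling.

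These values were set beside 25 snoRNA host long noncoding genes, the 3 included, of which 24 were compared. In Huh7, 14 were above 0 and 10 below, with a median log2 TPM change of 0.09 and none past 2-fold. In HepG2, 9 were above 0 and 15 below, with a median of −0.03, and SNHG20 alone passed 2-fold, at 11.6 and 24.6 TPM, a log2 change of 1.02. The median over all genes compared was −0.00 in Huh7 and −0.01 in HepG2.

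Of the 21 snoRNAs inside the 3 hosts, 8 lie in SNHG1, 10 in GAS5 and 3 in ZFAS1. In Huh7, 15 of the 19 compared were above 0, with a median log2 TPM change of 0.34. In HepG2, 17 of the 20 compared were below 0, with a median of −0.55. In HepG2, 4 were past 2-fold lower, namely SNORD12 at −1.19, SNORD30 at −1.11, SNORD31 at −1.03 and SNORD78 at −1.03. In Huh7 SNORD12 was higher, at 1.00. Over all snoRNA genes compared, 7.92% of 202 were past 2-fold lower in HepG2 and 13.2% of 167 past 2-fold higher in Huh7, against 0.394% and 0.638% of all genes. The snoRNA genes of the whole table moved likewise, with a median of 0.41 over 167 in Huh7 and −0.20 over 202 in HepG2.
These genes are 60 to 126 bases long, and their aligned bases in HepG2 with NC-siRNA reached 15800 for a snoRNA of GAS5 and 13766 for one of SNHG1. Those past 2-fold rested on fewer. SNORD12 had 249 and 874 aligned bases in Huh7 and 1327 and 570 in HepG2, and SNORD30 had 4366 and 2411 in HepG2. Whether the values come from snoRNAs or from unspliced host RNA was not tested.

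**Figure D4:**
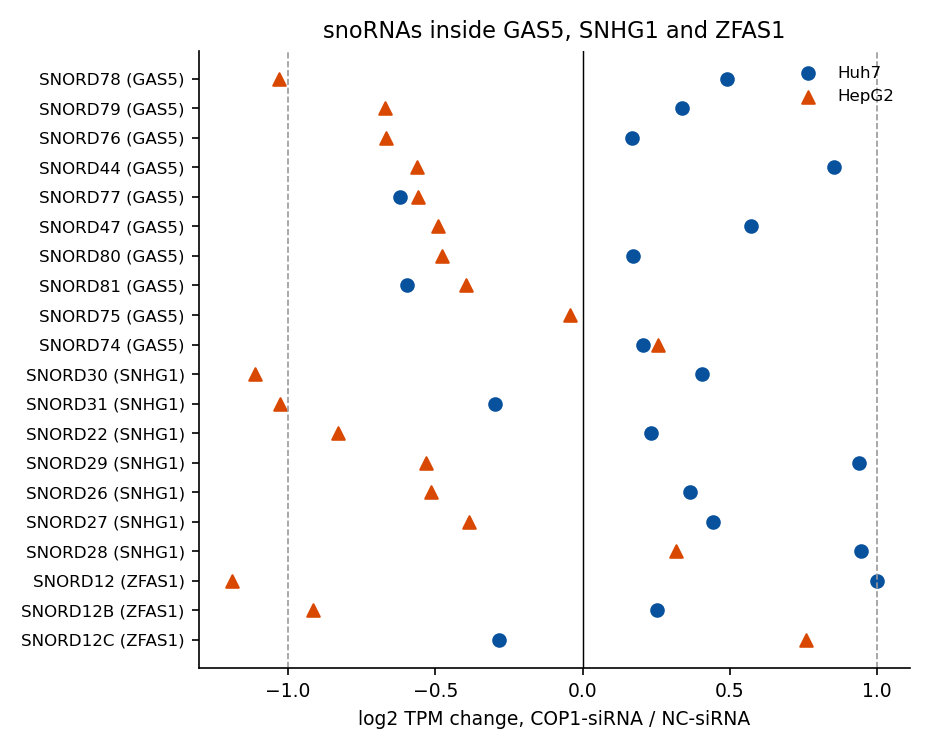
Log2 TPM change, COP1-siRNA over NC-siRNA, of the snoRNAs inside GAS5, SNHG1 and ZFAS1 in Huh7 (circles) and HepG2 (triangles), 1 row per snoRNA; dashed lines mark 2-fold. In Huh7, 15 of 19 lie above 0, and in HepG2, 17 of 20 lie below 0.

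Genes that work with these RNAs stayed under 2-fold in both lines. Of all genes compared, only 1.08% in Huh7 and 0.934% in HepG2 were past 2-fold by TPM. Counts of 0 in lists as short as those below therefore say little about these genes. Of the 18 paraspeckle protein genes, all 18 were compared and 0 passed 2-fold in either line. HNRNPK and NONO, RNA-binding proteins with the highest mean TPM of the list, had log2 TPM changes of −0.11 and 0.04 in Huh7 and −0.07 and −0.08 in HepG2. Among 15 nuclear speckle genes 0 passed, and the splicing factors SRSF2 and U2AF2 changed by 0.03 and 0.05 in Huh7 and by −0.10 and −0.06 in HepG2. Among 18 nonsense-mediated decay factors 0 passed, and the exon junction proteins RNPS1 and MAGOH changed by 0.04 and 0.26 in Huh7 and by 0.07 and 0.29 in HepG2.
A further 38 long noncoding genes were listed, of which 37 were in the tables. In Huh7, 17 of them were compared and in HepG2 21, and 0 passed 2-fold in either. NORAD, a cytoplasmic RNA that binds Pumilio proteins, was higher with COP1-siRNA by 0.44 in Huh7 and 0.42 in HepG2. MIR4435-2HG was higher by 0.25 and 0.61, but by 0.12 and 0.12 in scaled coverage. It has a near-identical copy, CYTOR, so its values are uncertain.

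Neighbour genes were read beside each of the RNAs. With COP1-siRNA, 0 of the 11 compared in Huh7 and 0 of the 14 compared in HepG2 passed 2-fold by TPM. The share over all genes was 1.08% and 0.934%, so these counts say little about neighbours. Of the RNAs, 4 start head to head with a protein-coding gene on the other strand. SNHG1 lies 223 bases from SLC3A2, an amino acid transporter subunit gene that was higher with COP1-siRNA by 0.26 in Huh7 and 0.48 in HepG2. ZFAS1 lies 120 bases from ZNFX1, which was higher by 0.38 and 0.39. TUG1 lies 436 bases from MORC2, with log2 changes of −0.36 and −0.26 where TUG1 was higher in both lines. MIR22HG lies 250 bases from WDR81, with −0.18 and 0.02.
FOXA2, whose 3′ end is 2355 bases from the start of LINC00261, was at 80.1 and 61.3 TPM in Huh7 and at 2.87 and 2.92 TPM in HepG2. Its log2 TPM change was −0.38 in Huh7, near the −0.41 of LINC00261, and 0.02 in HepG2. CDKN1C, the growth inhibitor gene of the imprinted region around KCNQ1OT1, was at 2.87 and 1.29 TPM in HepG2, a log2 change of −0.76, and under 1 TPM in Huh7. Its plain HepG2 values differed by more than 2-fold, and the 1 added to each TPM put the log2 change under that threshold. Among the remaining neighbours, FRMD8, LTBP3, SLC35B3, ZBTB37, WDR74 and TLCD2 had log2 TPM changes between −0.56 (LTBP3 in Huh7) and 0.16 (FRMD8 in Huh7) where compared.

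Huh7 was compared with HepG2, both with NC-siRNA, to describe where the RNAs differ between the lines. HULC, LINC00261 and MIR22HG were higher in Huh7 and GAS5 higher in HepG2, each past 2-fold by TPM and by scaled coverage. The background was 14.7% of 15055 genes past 2-fold higher in Huh7 and 27.9% past 2-fold higher in HepG2 by TPM. By scaled coverage it was 11.9% and 26.0%. The median of all genes compared was −0.37 by TPM and −0.38 by scaled coverage, and the values of the RNAs stand beside that shift. With median-of-ratios scaling that median was −0.06, and the genes past 2-fold by TPM divided into 2870 higher in Huh7 and 3125 higher in HepG2, against 2215 and 4194 without it.

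HULC was 51.2-fold higher in Huh7 and LINC00261 54.9-fold higher by plain TPM. Their log2 differences were 5.27 and 5.12 by TPM and 5.21 and 5.07 by scaled coverage. With COP1-siRNA in both lines the plain differences were 55.5-fold and 33.5-fold. FOXA2 had a log2 TPM difference of 4.39, in the same direction as LINC00261. Of the 16 listed hepatocyte genes, 13 were past 2-fold higher in Huh7 and 1 was past 2-fold higher in HepG2, at −1.84. Their median was 2.76, and their part in these differences was not tested.

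MIR22HG was 9.41-fold higher in Huh7 by plain TPM, although its HepG2 level of 0.780 TPM was low. With 1 added to each TPM, its log2 difference was 2.23, which understates the plain ratio. With COP1-siRNA it was 8.17-fold higher. WDR81, on the other side of the shared start region, differed by 0.37. MALAT1 was higher in Huh7 by 0.66 with NC-siRNA and by 1.03 with COP1-siRNA, so that it passed 2-fold in the second pair of libraries.

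GAS5 was 5.22-fold higher in HepG2 by plain TPM, and 3.89-fold higher with COP1-siRNA. With 1 added to each TPM, its log2 difference with NC-siRNA was −2.37. ZFAS1 was 1.87-fold higher in HepG2, with −0.89, and 1.45-fold higher with COP1-siRNA. SNHG1 differed by −0.03, which turned to 0.31 with median-of-ratios scaling and was 0.28 with COP1-siRNA. NEAT1 differed by 0.10 by TPM and −0.05 by scaled coverage, and TUG1 by −0.36 and −0.44.

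The snoRNA host list as a whole lay toward HepG2. Of its 24 compared genes, 13 were past 2-fold higher in HepG2 and 1, SNHG32, past 2-fold higher in Huh7, with a median of −1.43. SNHG5, at 102 TPM in Huh7 and 487 TPM in HepG2, and SNHG29, at 931 and 1281 TPM, were the hosts of highest level in HepG2 and were chosen after their values were seen. The snoRNAs inside the 3 hosts lay further toward HepG2, with 17 of 20 past 2-fold and a median of −1.70.
The summed TPM of the snoRNAs of GAS5 was 64.8 in Huh7 against 332 in HepG2, and for the snoRNAs of SNHG1 it was 59.5 against 196. The snoRNAs of SNHG1 differed between the lines while the host TPM was 115 and 118. The snoRNA genes of the whole table had a median of −1.22 over 188 genes, with 113 past 2-fold higher in HepG2.
Of the further listed long noncoding genes, 5 of 21 were past 2-fold higher in Huh7 and 9 past 2-fold higher in HepG2, beside 22.6% and 35.4% of the 1041 long noncoding RNA genes compared. UCA1, a cancer-associated RNA, was at 27.5 TPM in Huh7 and 0.560 TPM in HepG2, and HOTAIR, a chromatin-associated RNA, at 0.412 and 7.38 TPM. Both were chosen after their values were seen.

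**Figure D5:**
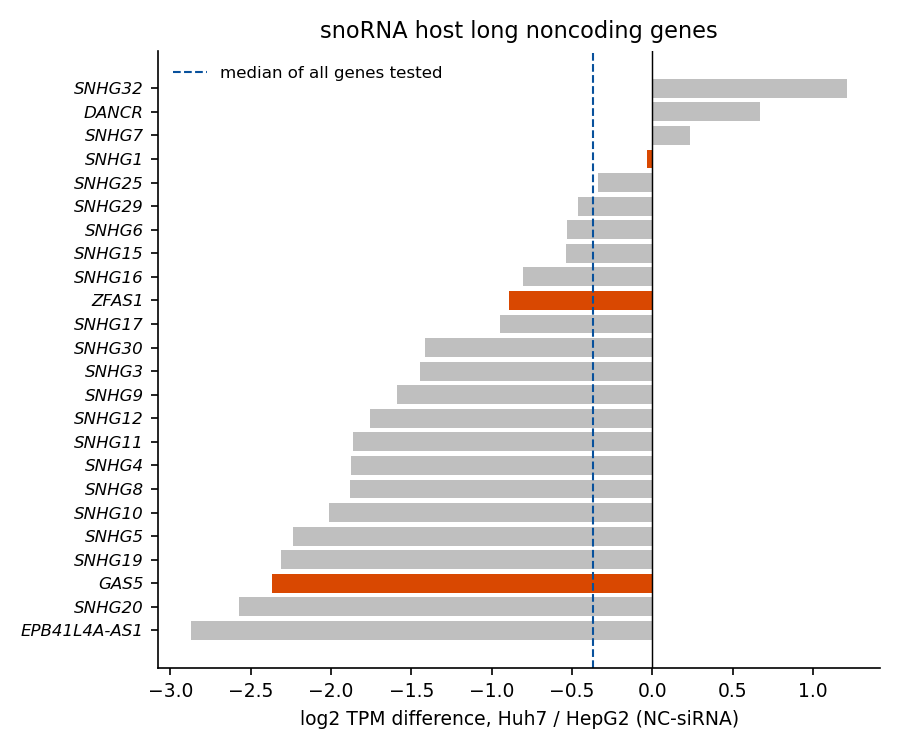
Log2 TPM difference, Huh7 over HepG2 with NC-siRNA, of the 24 snoRNA host long noncoding genes compared, 1 bar per gene, with GAS5, SNHG1 and ZFAS1 in orange; the dashed line is the median of all genes tested, −0.37. Bars left of 0 are higher in HepG2, among them GAS5 at −2.37 and ZFAS1 at −0.89, while SNHG1 is at −0.03.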

How the data were processed

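The authors sequenced 1 stranded, poly(A)-selected library per line and siRNA. The submitters' processing notes name FastQC 0.11.7, Trimmomatic 0.38, HISAT2 2.1.0, StringTie 2.1.3b, edgeR and GRCh38. The coverage (a signal over the gene's bases), FPKM and TPM values were deposited by the authors per gene, with no counts, so depth in reads is unknown and intervals could not be computed. Of 46427 Gene IDs, 44698 matched RefSeq. Repeated Gene IDs were summed. Genes with at least 1 TPM in a library of a comparison were compared. The members and lists were chosen with earlier results of these data known. The genes named were the 10, COP1, list members past 2-fold by TPM in a line (otherwise the 2 of highest mean TPM), neighbours of at least 1 TPM (2 of these are not reported here), and for NEAT1 the 5 other genes whose ratio shifted most in 1 shared direction in both lines. Alternatives were other pseudocounts, scalings, minimum TPM, FPKM, fold threshold, repeated IDs, scaling of coverage, and the COP1-siRNA libraries for the line comparison. The computation was tested on simulated data (Python 3.11.15, numpy 2.4.6, pandas 2.3.3, matplotlib 3.10.9). The simulation changed the TPM, FPKM and coverage of a gene together, so a parting of TPM and coverage as in NEAT1 was not tried. No sample was left out.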

Additional observations from a re-analysis of the deposited data

Results flagged for a closer look

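The siRNA changes of 5 genes had opposite signs in Huh7 and HepG2, on TPM and on scaled coverage alike. The difference between the lines, Huh7 minus HepG2 on the log2 TPM scale, was −0.60 for LINC00261 (−0.41 and 0.19), 0.42 for GAS5 (0.10 and −0.32), 0.37 for ZFAS1 (0.08 and −0.29), 0.31 for SNHG1 (0.30 and −0.01) and 0.086 for HULC (0.00 and −0.08). These differences were not tested, since each line had 1 library per siRNA. Among all 11970 genes compared in both lines, 31.7% had opposite signs on both measures. The signs of HULC in Huh7 and SNHG1 in HepG2 turned with another scaling of TPM, and that of ZFAS1 in Huh7 turned with another scaling of the coverage.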

How the results depend on the processing

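No paired analysis was possible because within a line each siRNA had 1 library and no value reported comes from a test, and for the same reason no library could be left out. A fit with the 2 lines as pairs, which would leave 1 residual degree of freedom and take the lines as replicates of each other, was not run. The count of the 10 genes past 2-fold changed by TPM under no alternative in the siRNA comparisons. In HepG2 by scaled coverage it was 1 in place of 0 with a pseudocount of 0.1, where MIR22HG reached 1.00. Counts of all genes past 2-fold moved more. By TPM, a pseudocount of 0.1 gave 390 in Huh7 and 372 in HepG2 in place of 141 and 135, FPKM gave 57 and 39, a minimum of 5 TPM gave 76 and 55, and 1.5-fold gave 713 and 640. By scaled coverage, a pseudocount of 0.1 gave 285 and 274 in place of 122 and 128. With a minimum of 5 TPM, 34 were higher and 42 lower in Huh7, where 83 were higher and 58 lower with 1 TPM. Between the lines, median-of-ratios scaling gave 2870 higher in Huh7 and 3125 higher in HepG2. Of 260 values of the single genes, 250 kept their sign and their side of the threshold, 2 passed 2-fold (MIR22HG above, and MALAT1 between the lines with COP1-siRNA) and 8 changed sign under the threshold. The number of reads is unknown, so what depth limits could not be given as an interval. KCNQ1OT1 was too low to compare.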
